A study of Sus scrofa domesticus with 150 samples.

Results

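The RNA of fat cells was followed through wound healing in pig skin by 10 genes: ADIPOQ, PLIN1, LEP, CIDEC, FABP4, LPL, PLIN4, PCK1, GPD1 and LIPE. They were taken by symbol from a count table of 30461 genes, where they fill 11 rows. PCK1 has 2 rows on 2 contigs, written here as PCK1 9575 and PCK1 4360 after the end of their identifiers. The levels of the PCK1 rows were summed, whereas tests were run on each row. The row used for FABP4 carries the older name A-FABP in the table and was taken in through the FABP4 entry of its protein match.

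The samples came from 6 female Yorkshire-mix pigs of 45–50 kg. Each animal received 12 circular full-thickness wounds of 2 cm on the back, which were covered with Telfa Clear and Tegaderm and given no other treatment before sampling. On day 0 the excised skin of each animal was sampled (n = 6), and it served as the unwounded reference. On every day from 1 to 7 and on days 9, 11 and 13, biopsies of 3.5 mm were taken from the edge and from the center of 6 wounds (3 animals with 2 wounds each), and on days 15, 16, 19 and 21 from 3 wounds (1 per animal). A topical antibiotic was applied to the biopsy sites, and sampled wounds left the experiment. Animals 1, 2 and 3 were sampled on days 1, 3, 5, 7, 11, 15 and 21, and animals 4, 5 and 6 on the other days, so neighboring days often differ in the animals as well. This gives 29 states and 150 samples with 13133379 to 24895572 counts each. A biopsy holds all cells of its site, so fewer fat cells and less RNA per fat cell cannot be told apart. Day 0 is the whole excised skin, and how deep each biopsy reached below the dermis is not given in the sources used here.

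White fat cells store triglyceride in a single large droplet below the dermis and around hair follicles. They take up fatty acids that lipoprotein lipase frees from blood lipids, bind them to a carrier protein, join them to glycerol phosphate, and release them again when the droplet's lipases are switched on. They also secrete hormones that report on fat stores. In skin, dermal fat cells are known to take part in repair and defense.

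The secreted products are ADIPOQ (ENSSSCG00025002178), the hormone adiponectin, and LEP (ENSSSCG00025004218), the satiety hormone leptin. The droplet proteins are PLIN1 (ENSSSCG00025076329), the perilipin that guards the droplet of mature fat cells, PLIN4 (ENSSSCG00025021584), a perilipin of young droplets, and CIDEC (ENSSSCG00025064894), which fuses small droplets into large ones. LPL (ENSSSCG00025046044) is lipoprotein lipase and FABP4 (ENSSSCG00025055830) is the fatty acid carrier. GPD1 (ENSSSCG00025070861) and PCK1 (ENSSSCG00025009575 and ENSSSCG00025074360) make glycerol phosphate, from glucose and from smaller precursors respectively. LIPE (ENSSSCG00025007958) is hormone-sensitive lipase, which breaks stored fat down. The 2 PCK1 rows had a Pearson's r of 0.97 over the 150 samples, and 77.6% of PCK1 counts fell on PCK1 4360, whose gene model starts at base 27 of its contig. Reads of the same gene may therefore be split between both rows.

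In the wound center the RNA of fat cells stood at its highest 1 day after wounding and then declined. ADIPOQ measured 51.6, 273 and 882 CPM (the gene's share of the sample's counts, scaled to a common total; lowest, median and highest of 6 samples) in day 0 skin. In the center on day 1 it measured 2148, 4695 and 9546 CPM, whereas at the edge on day 1 it measured 10.2, 79.0 and 716 CPM. All 6 center samples thus lay above all day 0 and all edge samples, and edge and day 0 samples overlapped. The 10 genes together took between 0.674% and 2.35% of all counts in the center on day 1 (median 1.31%), against 0.0194% to 0.246% in day 0 skin (median 0.083%) and 0.0074% to 0.250% at the edge on day 1 (median 0.041%).

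On the log2(1 + CPM) scale, on which all state means are given here, the mean of ADIPOQ in the center started at 12.04 ± 0.85 (SD, n = 6) 1 day after wounding. It was 10.68 ± 1.03 by day 3 and 8.45 ± 1.83 by day 7. Later samples spread widely, with 6.07 ± 3.59 for day 11 and 4.96 ± 5.18 (n = 3) for day 21. Day 0 skin had a mean of 7.86, with samples from 5.72 to 9.79. At the edge the mean was 6.34 ± 2.15 at first, 10.16 ± 1.23 by day 3, and between 5.46 and 10.46 on later days. Among the 29 states, the center on day 1 had the highest mean for 8 of the 10 genes, the exceptions being LPL, which was highest in the center on day 2, and PCK1, which was highest in the center on day 5. In that order, each state differed from the next by less than the larger SD of the pair for 9 of the 10 genes. LEP had 1 larger gap, so the order of neighboring states is not resolved by these samples.

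**Figure D1:**
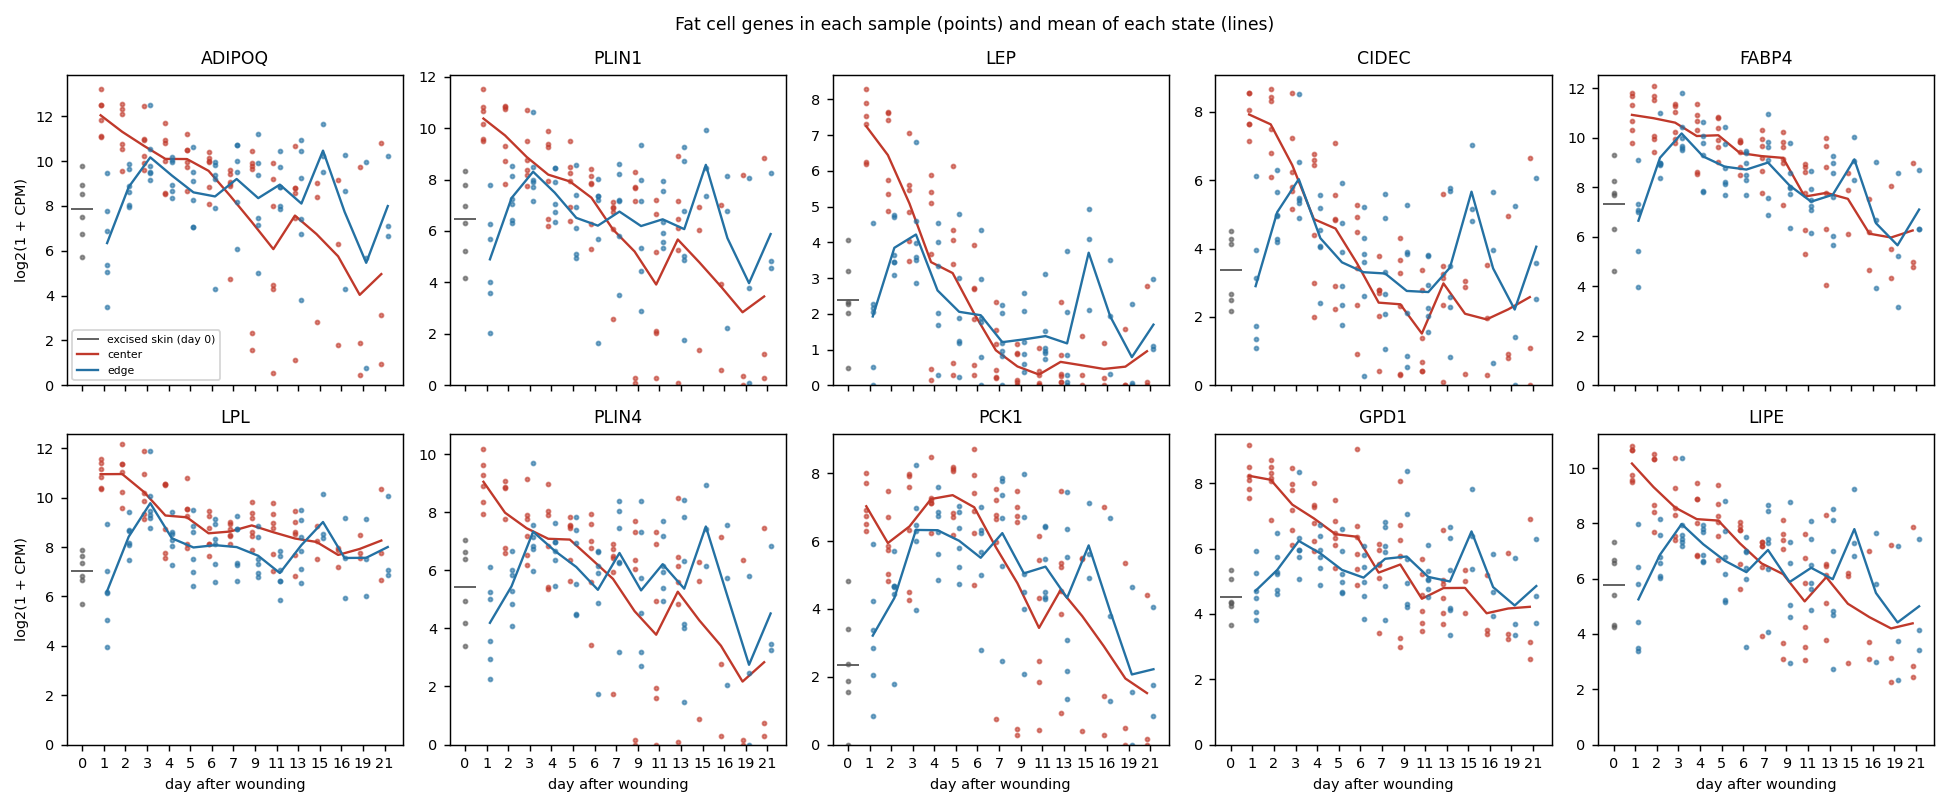
Level of each of the 10 fat cell genes as log2(1 + CPM) (y axis) by day after wounding (x axis, days evenly spaced), with 1 point per sample, red for center, blue for edge and gray for day 0 skin, and lines through the state means. The center starts above the edge for every gene, for ADIPOQ at a mean of 12.04 against 6.34 on day 1, and the samples of 1 state spread widely from day 7 on.

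Per transcript length, in FPKM (fragments scaled by gene length and library total, as the authors deposited them), FABP4 and ADIPOQ were the most abundant members in the center on day 1, with medians of 1170 and 1110 FPKM. PLIN1 followed with 676 FPKM, LPL with 387, CIDEC with 161, PLIN4 with 140 and LIPE with 127 FPKM. LEP (48.5 FPKM), GPD1 (42.9 FPKM) and PCK1 (39.7 FPKM) were lowest, and they were not separable in that order, since LEP exceeded GPD1 in 3 of 6 samples. By day 11 the order of the medians in the center was different. LPL exceeded ADIPOQ in 4 of 6 samples there, and ADIPOQ spanned 0.137 to 271 FPKM, so the order of these genes was not resolved. FABP4 had a median of 207 FPKM, LPL 106, ADIPOQ 38.1 and PLIN1 11.3 FPKM, while CIDEC was at 0.942 and LEP at 0.0455 FPKM, below PCK1 with 4.95 FPKM.

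The center was compared with the edge within each day by edgeR's quasi-likelihood test over all genes, with a Benjamini-Hochberg adjusted p below 0.05 as the threshold. On day 1 all 11 rows were higher in the center, where 22.6% of all tested genes were higher, 24% lower and 46.6% called in either direction. Their log2 fold changes ran from 3.08 for PCK1 9575 to 4.98 for LEP, with a median of 4.03 against 0.00 over all genes. ADIPOQ was higher by a log2 fold of 4.70 (SE 0.96, adjusted p = 0.001964) and was higher in the center in 6 of 6 wounds. GPD1, with a log2 fold of 3.46 (SE 0.41, adjusted p = 0.0001459), had the smallest error. On day 2, 10 of the 11 rows were higher in the center (17.7% of all genes), with log2 folds of 1.56 for FABP4 to 2.83 for LEP, and the remaining row, PCK1 4360, had 1.53 (adjusted p = 0.05626).

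Gene lists of other cells also differed between center and edge on day 1, in both directions. Of all tested genes, 22.6% were higher in the center and 24% lower. The list of blood vessel genes had 10 of 11 rows higher in the center, with a summed level of 1469 to 2682 CPM in the center and 251 to 799 CPM at the edge. Of the macrophage list, 2 of 10 rows were higher (818 to 2925 against 301 to 1603 CPM), and of the fibroblast list 3 were higher and 1 lower of 10 (13331 to 19926 against 6953 to 29579 CPM). Of the keratinocyte list, of which 9 of 12 genes were found in the table, 8 of 9 rows were lower in the center (162 to 22714 against 51538 to 73018 CPM). Of the sebaceous list, 5 rows were higher and 1 lower of 6 tested (277 to 427 against 133 to 207 CPM). Skeletal muscle genes reached 11242 CPM in the highest center sample of day 1 and 77748 CPM in that of day 2, while the median center sample had 5.79 and 9.58 CPM. GPD1 is also known to be expressed in muscle. The part of these cells in the differences was not tested.

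From day 3 on fewer rows were called between center and edge. On day 3 the count was 0 of 11 rows and 0% of all genes by edgeR, with 1667 genes and 0 of the members below 0.05 before adjustment. DESeq2 gave 1 gene and 0 members there. Without the libraries that stood apart in earlier work GPD1 and LIPE were higher in the center. The share of all genes called in that last fit is not given here, so both calls have no background beside them. On day 4, 1 row was higher in the center (GPD1, where 11.4% of all genes were higher), and on day 5, 3 rows were (GPD1 and both PCK1 rows, 16.8%, against 20.3% of all genes lower). On days 6, 7 and 13 the count was 0 (14.2%, 37.4% and 28.4% of all genes in either direction; on day 6, 3.92% were higher and 10.3% lower, and on day 7, 17.1% and 20.4%), with 3, 0 and 0 members below 0.05 before adjustment and 1, 0 and 0 by DESeq2.

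On day 11 edgeR called LPL higher and LEP lower in the center. Within wounds, ADIPOQ, PLIN1, LEP, CIDEC, PLIN4, GPD1 and LIPE were each higher in the center in 0 of 6 wounds that day. For ADIPOQ and PLIN1 the mean difference within wounds was -2.88 and -2.54 in log2(1 + CPM). PCK1 was higher in the center in 1, FABP4 in 4 and LPL in 6 of 6 wounds. LPL was higher in the center on day 9 (log2 fold 1.16, adjusted p = 0.04925, 14.3% of all genes higher) and on day 11 (1.71, SE 0.47, adjusted p = 0.01123, 22.9%). In the center on day 11 it measured 128, 465 and 883 CPM and at the edge 57.6, 116 and 230 CPM (lowest, median and highest). Without the libraries that stood apart, the call on day 9 was lost and that on day 11 stayed. LEP was lower in the center on day 11 (log2 fold -3.08, SE 0.95, adjusted p = 0.01996, 20.6% of all genes lower and 43.4% called in either direction), at 0, 0.134 and 1.05 CPM against 0.649, 0.997 and 7.69 CPM. Macrophages are known to make LPL as well, and on day 11 all 10 rows of the macrophage list were higher in the center, with a summed 1026 to 2083 CPM against 212 to 705 CPM. Their part in the LPL difference was not tested.

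On days 15, 16, 19 and 21, with 3 samples per location, edgeR called 0 members, where 17.4%, 10.1%, 0% and 0.0684% of all genes were called in either direction (9.81% higher and 7.55% lower on day 15, and 5.87% and 4.21% on day 16). On days 19 and 21, 10 of the 11 rows passed the filter on low counts. Before adjustment 3, 0, 0 and 0 members were below 0.05, and DESeq2 called 4, 0, 0 and 0 (on day 15 LEP, CIDEC, GPD1 and LIPE, all lower in the center). ADIPOQ on day 15 measured 6.01, 516 and 337 CPM in the centers and 733, 1181 and 3254 CPM at the edges of animals 1, 2 and 3, so that center and edge did not overlap. The median log2 fold of the members on day 15 was -2.41, against -0.01 over all genes.

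Over the 14 days, 27 of 151 tested values were higher and 1 was lower in the center, where 11% and 12.5% of all genes' values were. Since the labels give the edge and center sample of each wound, the test was repeated with the wound as a replicate block, which called 36 of 154 values higher and 11 lower (11.6% and 13.7% of all genes). With the block, 4 rows were higher on day 4 and 7 on day 5 (19.7% and 18.6% of all genes higher), and 5, 2 and 4 were lower on days 11, 15 and 16 (24.9%, 6.25% and 6.92% of all genes lower). With all 150 samples in one fit, 18 values were called, all higher in the center. The share of all genes called in that fit is not given here, so this count has no background beside it.

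**Figure D2:**
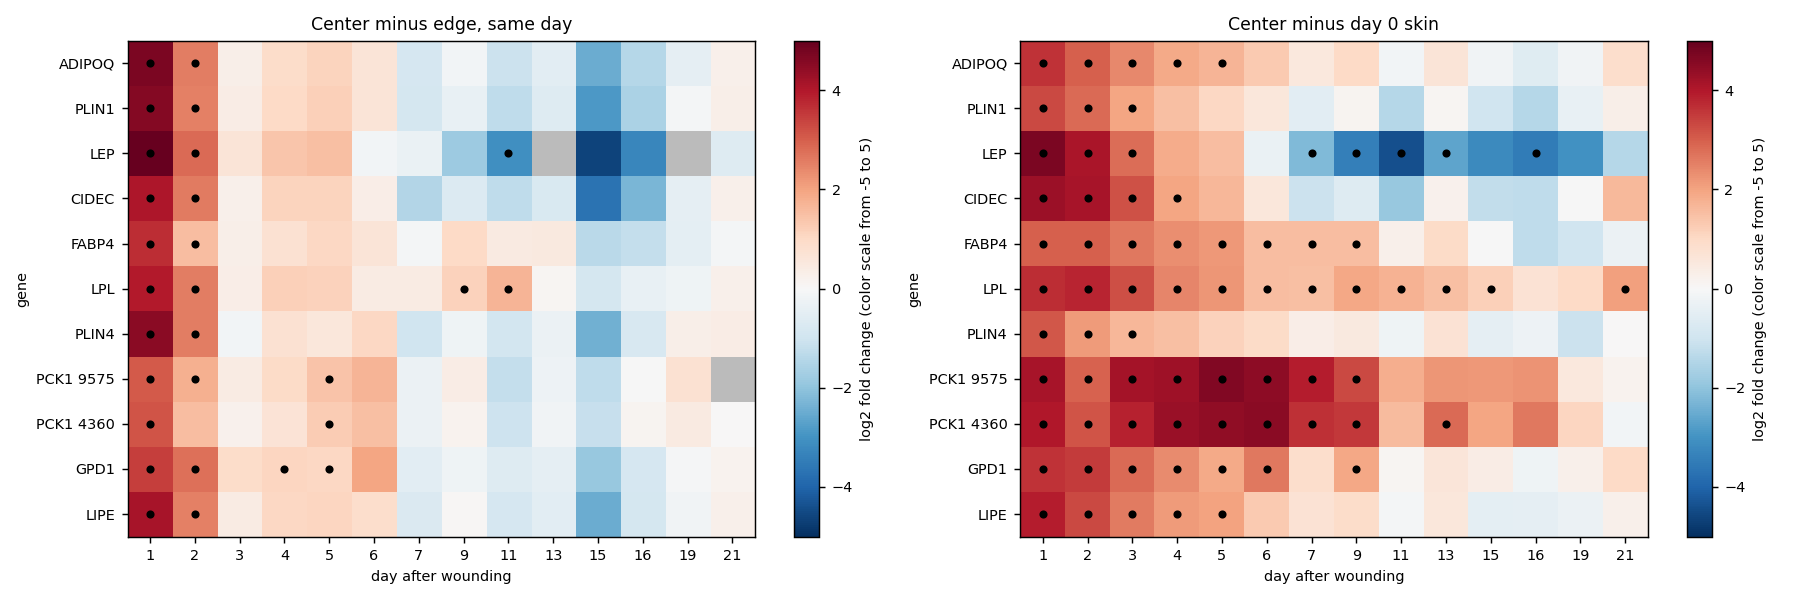
Log2 fold change (color, red for higher and blue for lower in the center) of each of the 11 rows (y axis) by day (x axis), for the center against the edge of the same day (left) and for the center against day 0 skin (right). Black dots mark an adjusted p below 0.05 and gray cells mark rows that did not pass the filter on low counts. The dots on the left stand mainly on days 1 and 2, and on the right LPL is called on 12 of 14 days whereas LEP turns from higher to lower by day 7.

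Taken over all days as 1 mean per animal, FABP4 and LPL were higher in the center than at the edge in 6 of 6 animals, by 0.79 ± 0.42 and 1.18 ± 0.44 (SD, n = 6) on the log2(1 + CPM) scale. The exact two-sided sign-flip permutation test gave p = 0.03125 for both, which is the smallest that 6 animals allow. For the other 8 genes the mean differences lay between 0.15 for ADIPOQ and 0.65 for LIPE, and their p between 0.0625 and 0.46875, without adjustment over the 10 tests. These means join days of opposite sign and do not describe single days. For ADIPOQ the mean difference within wounds was 5.70 on day 1 and -3.72 on day 15. FABP4 and LPL were each higher in the center in 0 of 3 wounds on day 15.

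Compared with day 0 skin, the center stood higher for all 11 rows on days 1, 2 and 3, where 33%, 30% and 30.3% of all genes were higher and 65.1%, 59.1% and 61% were called in either direction. The number of rows was then 8, 7, 5, 4 and 5 on days 4, 5, 6, 7 and 9 (32.8%, 35.3%, 34.2%, 35.3% and 31.1% of all genes), and 1, 2 and 1 on days 11, 13 and 15 (31.2%, 30.1% and 26.1%). It was 0, 0 and 1 on days 16, 19 and 21 (26.8%, 21.4% and 21%). On days 16 and 19, 1 member (LEP, lower) and 2 members were below 0.05 before adjustment, and DESeq2 called 0 and 1 (LPL) higher. In all, 67 of 154 values were higher (29.8% of all genes' values) and 5 were lower (29.9%). With the animal as a replicate block 53 were higher and 2 lower (20.1% and 20.7% of all genes).

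The number of days on which a member was called differed, which follows the error of each gene as well as its level, and differences between members were not tested. PLIN1 and PLIN4 were higher than day 0 on 3 days, CIDEC on 4, ADIPOQ and LIPE on 5, GPD1 on 7 and FABP4 on 8 days, while the PCK1 rows were higher on 8 and 9 and LPL on 12 of the 14 days. With the animal block these were 2 days for PLIN1, 5 for GPD1, 7 for FABP4 and 9 for LPL. On day 1 the log2 fold against day 0 was 3.63 (SE 0.69, adjusted p = 0.0005625) for ADIPOQ, 4.71 (SE 0.71, adjusted p = 0.0001028) for LEP and 3.68 (SE 0.39, adjusted p = 7.185e-06) for LPL. LEP was the only member called lower, on days 7, 9, 11, 13 and 16 (35.8%, 30.6%, 32%, 31.2% and 27.2% of all genes were lower), and with the animal block on days 9 and 11 alone. These 14 comparisons share the day 0 samples.

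Day 0 skin of the same animal gave the same direction. Each animal's first wound day (day 1 or 2) was set against its own day 0 sample, and the center was higher in 6 of 6 animals for each of the 10 genes, by 3.08 ± 1.47 for PLIN4 to 4.45 ± 1.10 for LEP on the log2(1 + CPM) scale (exact sign-flip permutation test, two-sided, p = 0.03125 for each, the smallest that 6 animals allow, 20 values tested without adjustment). At the edge the same differences ran from -0.62 ± 1.88 for PLIN4 to 1.42 ± 2.10 for PCK1, and their p from 0.1875 to 0.78125.

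At the edge on day 1, 0 of 11 rows differed from day 0 by edgeR and by DESeq2 (26.4% of all genes were higher), and 0 were below 0.05 before adjustment. On day 3, 9 rows were higher (27.3%), of which LPL had a log2 fold of 2.92 (adjusted p = 0.001331) and CIDEC 2.97 (adjusted p = 0.00535). ADIPOQ measured 572, 813 and 5753 CPM (lowest, median and highest) in these edge samples. Its 2 highest values, 1492 and 5753 CPM, came from animal 3. Without the day 3 edge sample that stood apart 6 rows were called, and the share of all genes in that fit is not given here. With the animal as a replicate block 3 rows were higher (LPL and both PCK1 rows), where 15% of all genes were.

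On the remaining days 0 to 4 rows were higher at the edge than in day 0 skin, where 10.2% to 29.3% of all genes were. On days 16, 19 and 21 the count was 0, with 0, 0 and 1 members below 0.05 before adjustment and 0 by DESeq2. In all, 34 of 154 values were higher (22.5% of all genes' values) and 0 lower, 16 of them from the PCK1 rows. This count was 20 with the animal as a replicate block (13.5% of all genes) and 53 without the day 0 sample of animal 1, which had the highest ADIPOQ of the day 0 samples (882 CPM). For the count of 53 the share of all genes is not given here.

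The decline in the center was tested across all 72 center samples as a slope on log2(day), that is, the change in log2 expression for each doubling of the day. All 11 rows fell, where 31.4% of all tested genes fell, with slopes from -0.59 for PCK1 4360 to -2.14 for LEP and a median of -0.89 against 0.00 over all genes. LEP fell by 2.14 (SE 0.20, adjusted p = 6.282e-15), CIDEC by 1.15 (SE 0.17, adjusted p = 1.629e-08), LIPE by 1.05 (SE 0.13, adjusted p = 3.808e-11) and ADIPOQ by 0.89 (SE 0.17, adjusted p = 1.034e-05). LPL fell by 0.66 (SE 0.08, adjusted p = 1.667e-10). The errors and p-values here treat the biopsies of an animal as independent. With the animal as a replicate block all 11 rows fell too, with slopes from -0.62 to -2.35. Their median was then -1.02 against 0.00 over all genes.

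At the edge 1 of 11 rows fell (25.4% of all genes), namely LEP with a slope of -0.52 (adjusted p = 0.02641), and this call was lost when animal 4 or animal 5 or the libraries that stood apart were left out. The difference between the slopes of center and edge was tested in one fit of all wound samples, without pairing the edge and center of a wound. The fall was steeper in the center for 9 of 11 rows, where 18.1% of all genes differed in that direction, with differences from -0.57 for FABP4 to -1.61 for LEP. The 2 PCK1 rows had differences of -0.78 and -0.67 (adjusted p = 0.06909 and 0.1295), and both passed with DESeq2.

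**Figure D3:**
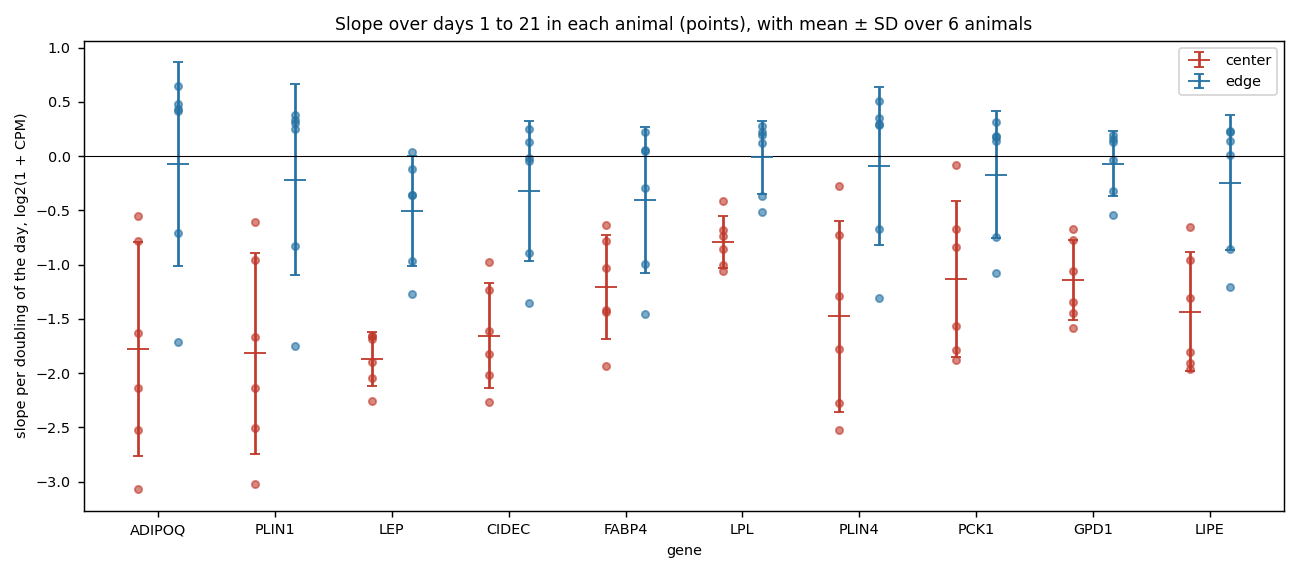
Slope of log2(1 + CPM) per doubling of the day (y axis) of each gene (x axis) in each of the 6 animals (points), with the mean and SD over animals as bars, red for center and blue for edge. All center points lie below 0, with the LEP points between -2.26 and -1.66, whereas the edge points lie on both sides of 0.

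Within single animals, which also keeps both sets of sampling days apart, the slope of the center on the log2(1 + CPM) scale was negative in 6 of 6 animals for each of the 10 genes. For ADIPOQ it was -2.52, -1.63, -0.78, -2.14, -3.07 and -0.55 in animals 1 to 6, with a mean of -1.78 ± 0.99 (SD, n = 6). For LEP the 6 values lay between -2.26 and -1.66, and for LPL between -1.06 and -0.41. At the edge ADIPOQ had a slope of -0.07 ± 0.94 and fell in 2 of 6 animals. These slopes weigh each sample equally on a log scale and so differ in size from those of the count model, which follow mean counts.

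Late centers were also set against early centers of the same 3 animals. From day 1 to day 11 all 11 rows were lower, where 21.6% of all genes were, with LEP down by a log2 fold of 9.15, CIDEC by 6.21, ADIPOQ by 3.80 and LPL by 1.95. From day 1 to day 21, from day 2 to day 13 and from day 2 to day 19, 5 rows each were lower (18.2%, 14.6% and 10.9% of all genes). LEP was lower in all 4 of these comparisons. Of 44 values 26 were called lower (16.3% of all genes' values), and this count was 17 without replicate 1 of the early day, which is a sample of animal 1 or animal 4, and 37 without replicate 3 of the late day. For the counts of 17 and 37 the shares of all genes are not given here.

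The late samples differed widely between animals. ADIPOQ on day 19 measured 0.392, 2.72 and 844 CPM in the centers of animals 4, 5 and 6, and 50.2, 0.68 and 993 CPM at their edges. On day 21 the centers of animals 1, 2 and 3 had 7.77, 0.925 and 1782 CPM, and the edges 136, 101 and 1185 CPM. Because the highest sample sets the mean count, the fit for day 21 (log2 fold 0.27, adjusted p = 0.996) and the means of log2 values (4.96 in the center against 7.99 at the edge) differ in sign for ADIPOQ.

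On days 9 to 21 the sample with the highest mean of the 10 genes came from animal 6 in 8 of the 8 states in which it was sampled and from animal 3 in 5 of 6, a pattern that was noticed after the values were seen. On days 1 to 7 it came from animal 6 in 4 of 6 states and from animal 3 in 6 of 8. In day 0 skin, by contrast, ADIPOQ was 882 CPM in animal 1, 366 in animal 3 and 105 in animal 6. The wounds of 1 animal differed as well. On day 9 the centers of both wounds of animal 4 had 1.99 and 812 CPM of ADIPOQ, whereas LPL had 898 and 232 CPM in the same samples. Those of animal 5 had 3.98 and 881 CPM of ADIPOQ. Over the 72 wounds, the deviations of the edge and the center from their state means had a Pearson's r of 0.54 for the mean of the 10 genes.

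**Figure D4:**
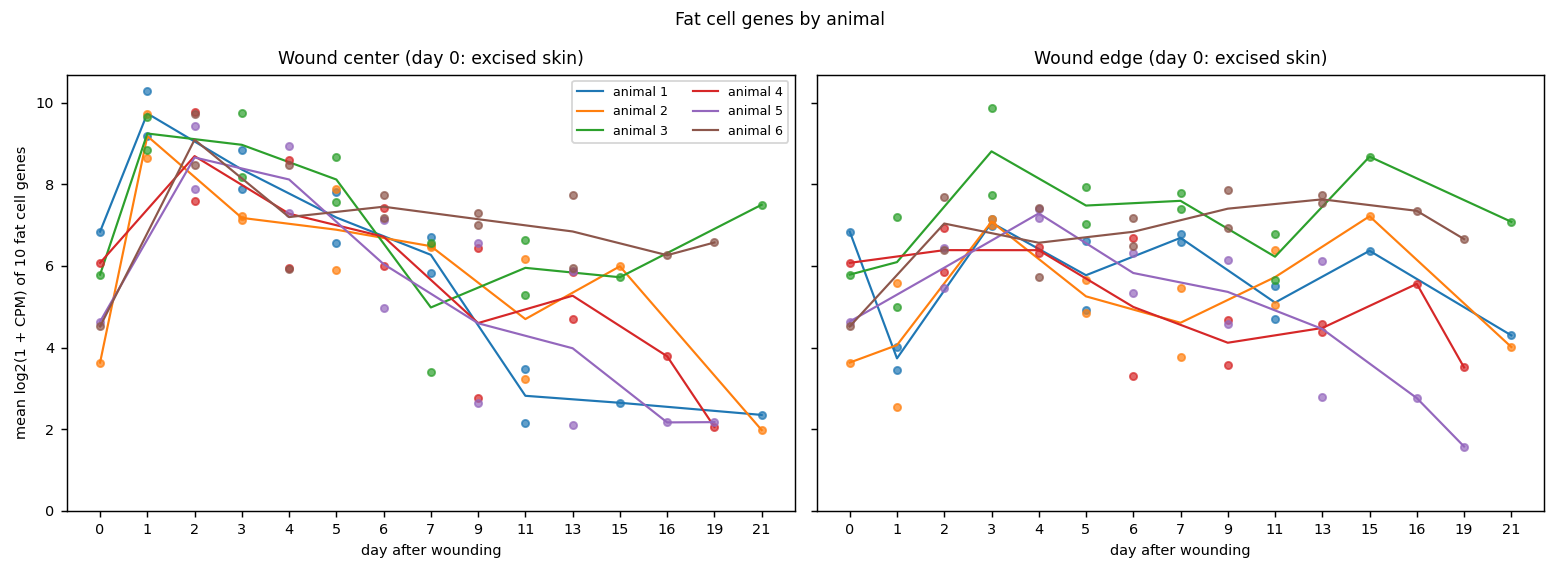
Mean log2(1 + CPM) of the 10 fat cell genes (y axis) by day (x axis, days evenly spaced) in each animal, with 1 point per sample and a line through the means of each animal, for the center (left) and the edge (right), both starting from day 0 skin. From day 9 on the samples of animals 3 and 6 lie at the top in most states, and in the center the other animals reach lower levels by days 19 and 21.

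The members did not keep a fixed ratio to each other. To describe this for the first week, each gene was set against ADIPOQ in the same sample, as the difference of log2(1 + CPM) values, a measure and a span of days chosen after the data had been seen and given without a test. In the center LEP stood at -4.79 ± 0.19 (SD, n = 6) relative to ADIPOQ on day 1 and at -7.47 ± 1.66 on day 7, and CIDEC at -4.12 ± 0.42 and -6.03 ± 0.94. PCK1 moved the other way, from -5.01 ± 1.09 to -2.63 ± 0.76, and FABP4 went from -1.11 ± 0.24 to 0.81 ± 1.19. FABP4 is known from capillary endothelium and macrophages as well, and it was present where several other fat cell genes were nearly absent. In the center on day 9, replicate 1 (animal 4) had 563 CPM of FABP4 with 1.99 CPM of ADIPOQ, 0.0538 CPM of PLIN1 and 0 CPM of PLIN4. The same sample had 898 CPM of LPL, 7.58 CPM of LIPE and 6.88 CPM of GPD1. The part of other cells in the FABP4 values was not tested. On day 7, 1 center sample (animal 3) had low ADIPOQ, 25.9 CPM against 477 to 773 CPM in the others.

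Per doubling of the day within an animal, over days 1 to 7 in the center, LEP changed relative to ADIPOQ by -1.33 ± 0.61 (SD over 6 animals, negative in 6 of 6), CIDEC by -1.08 ± 0.54 (6 of 6) and PLIN1 by -0.33 ± 0.15 (6 of 6). PCK1 changed by 1.37 ± 0.64 and FABP4 by 0.43 ± 0.24, negative in 0 of 6 animals. At the edge LEP (-1.09 ± 0.41), CIDEC (-0.86 ± 0.28) and PLIN1 (-0.37 ± 0.06) had the same sign in 6 of 6 animals and PCK1 (0.60 ± 0.70) was negative in 0 of 6, whereas FABP4 (-0.11 ± 0.48) was negative in 4. Over days 1 to 21 in the center most of these slopes were nearer to 0 or of mixed sign, with -0.09 ± 0.76 for LEP (negative in 3 of 6 animals), 0.13 ± 0.51 for CIDEC (2 of 6), -0.04 ± 0.08 for PLIN1 (4 of 6) and 0.65 ± 0.50 for PCK1 (0 of 6). FABP4 had 0.58 ± 0.53 (1 of 6). ADIPOQ itself was low in some late centers (0.478 and 1.90 in animals 4 and 5 on day 19), so LEP and CIDEC could not lie far below it there. Over days 1 to 7, LPL, PLIN4, GPD1 and LIPE had mean slopes between -0.09 and 0.09 in the center, with animals of both signs. In the center on day 11 the median of LEP (0.134 CPM) lay within the range that 3 counts span (0.121 to 0.228 CPM), and 28 of 150 samples had 3 counts of LEP or fewer, and differences of such low values are understated on this scale.

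**Figure D5:**
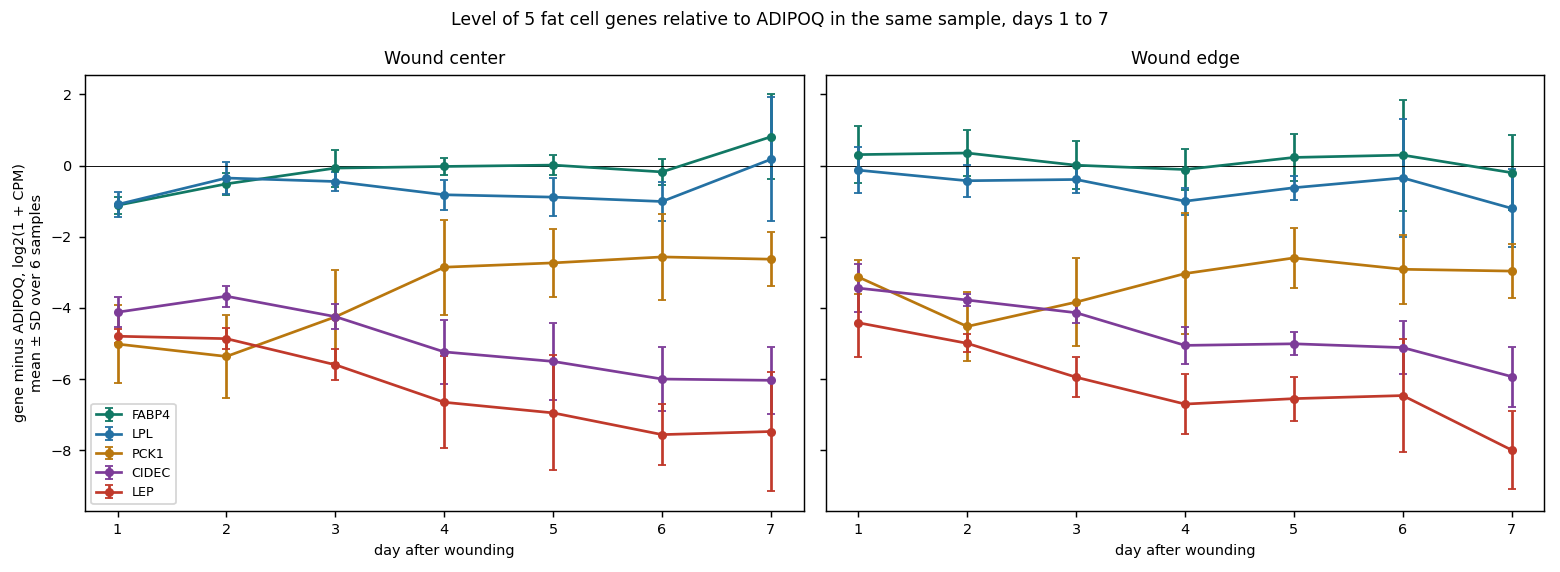
Difference in log2(1 + CPM) between 5 genes and ADIPOQ of the same sample (y axis) on days 1 to 7 (x axis), as mean ± SD over 6 samples per day, in the center (left) and at the edge (right). LEP and CIDEC go down relative to ADIPOQ in both places, LEP in the center from -4.79 to -7.47, and PCK1 ends above its day 1 value in the center, at -2.63 against -5.01.

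Across the 150 samples the members varied together, as a description of samples that share state, animal and depth. Pearson's r of each gene with the mean of the other 9 was highest for LIPE (0.98), PLIN1 (0.97), PLIN4 (0.95) and ADIPOQ (0.95) and lowest for PCK1 (0.80), LPL (0.78) and LEP (0.77). The closest pair was PLIN1 and ADIPOQ (0.99) and the most distant was PCK1 and LEP (0.46).

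Among 14081 genes with a mean of at least 1 CPM, those most like the mean of the 10 members over the 150 samples were TRARG1 (Pearson's r 0.976), a regulator of glucose transporter traffic, AQP7 (0.974), the glycerol channel of fat cells, S100A1, KLB, the co-receptor of FGF21, UCP3 and HCAR1, the lactate receptor of fat cells (0.962 each), ADCYAP1R1 (0.957), ADIG, adipogenin (0.955), GHR, the growth hormone receptor (0.955), and the fatty acid transporter CD36 (0.954). TRARG1 had a mean of 5.51 in day 0 skin, 10.13 in the center on day 1 and 3.67 in the center on day 11. KLB had 2.61, 7.48 and 2.02 in the same states, while CD36 had 5.71, 9.82 and 6.21. The CD36 values belong to 1 row, and its other row is not reported here.

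Other genes of fat cell biology were taken as whole lists by function. Of the transcription factors of fat cell differentiation, 9 of 10 fell and 1 rose with time in the center, where 31.4% of all genes fell and 30.3% rose, with a median slope of -0.41. The carbohydrate sensor MLXIPL (-1.20), PPARG, the master regulator of fat cells (-0.99), and EBF2 (-0.68) fell most, and PPARGC1A, a coactivator of mitochondrial genes, rose (0.48). On day 1, 9 of 9 tested factors were higher in the center than at the edge (22.6% of all genes), and the slope in the center was lower than at the edge for 7 of 10 (18.1% of all genes).

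Of the other lipid droplet genes 5 of 9 fell in the center, including PLIN2 (-0.73), HILPDA (-0.70) and PLIN5 (-0.65). Of all genes, 31.4% fell there and 30.3% rose. Of the other lipolysis genes 7 of 9 fell, including PNPLA3 (-1.69), AQP7 (-1.03) and the beta-adrenergic receptor ADRB1 (-0.75). Fatty acid and triglyceride synthesis had 10 of 12 rows falling and 1 rising, with DGAT2, which adds the last fatty acid to triglyceride (-0.85), ELOVL6 (-0.72) and LPIN1 (-0.54). Fatty acid uptake and activation had 7 of 9 falling and 1 rising, with ACSL1 (-1.03), 1 of the 2 rows of CD36 (-0.88) and the LPL inhibitor ANGPTL4 (-0.69). The other CD36 row is not reported here. In the list of insulin response and glucose uptake, 8 of 9 fell, including the insulin-dependent glucose transporter SLC2A4 (-1.003) and IRS2 (-0.62), and all 9 had a lower slope in the center than at the edge, where 18.1% of all genes had.

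The remaining lists did not share this pattern of counts. Of all genes, 31.4% fell and 30.3% rose with time in the center, and several of the counts below lie near those shares. Of the other secreted products of fat and their receptors 3 of 9 fell and 2 rose, with RBP4 (-0.52), ADIPOR2 (-0.34) and the adiponectin-binding cadherin CDH13 (0.40). Of the genes of fat cell progenitors 2 of 7 fell and 3 rose, with WT1 (-0.34), DPP4 (0.38) and PDGFRB (0.31), which is also a gene of pericytes and fibroblasts. Beside these, the blood vessel list had 3 of 11 rows falling, the macrophage list 5 falling and 3 rising of 10, the muscle list 3 falling of 8, the sebaceous list 3 falling and 3 rising of 6, the fibroblast list 8 of 10 rising and the keratinocyte list 9 of 9 rising with time in the center. The summed keratinocyte level in the center went from 162 to 22714 CPM on day 1 to between 43485 and 55658 CPM on day 21, and that of the fibroblast list from 13331 to 19926 CPM to between 130237 and 163610 CPM. Their part in the decline of the fat cell genes, which are measured as shares of all counts, was not tested.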

How the data were processed

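The authors sent RNA of 150 samples (wound biopsies and the whole excised skin of day 0) for poly-A sequencing with paired reads of 150 bases. The provider cleaned the reads of adapters and poor bases and did the alignment. The deposited counts per gene are not normalized. FPKM values were also deposited by the authors and were used only to compare levels between genes. The aligner, the counter and the genome build are not given in the sources used here, and gene positions on the contigs are therefore not printed.

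The labels gave each sample's day, place in the wound, animal and wound. CPM were computed from the counts and the totals per sample (13133379 to 24895572), and levels are log2(1 + CPM) with a pseudocount of 1. A level of 3 counts corresponds to 0.121 to 0.228 CPM, which covers counting error only. Each comparison was fitted on its own groups by the quasi-likelihood method of edgeR 4.0.16 (R 4.3.3) after TMM scaling. Genes passed filterByExpr at min.count 10 and min.total.count 15, and calls needed a p below 0.05 after Benjamini-Hochberg adjustment over every gene in the fit. The SE of a log2 fold is its size divided by the square root of F. Samples of 1 animal are not independent, so p-values without the block measure the spread between biopsies. Values per animal were tested by exact sign flips enumerated in Python 3.11.15 (pandas 2.3.3, numpy 2.4.6). The code of the fits was tried on simulated counts of independent samples with a fixed dispersion. Such counts hold no shared animal or wound, so they cannot show how the p-values behave for biopsies that do.

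The edge and center samples of 1 wound, and samples of 1 animal, are paired by the labels. Their deviations from the state means had a mean r of 0.27 over 14081 genes, above 0.1 in 58 of 72 wounds. The replicate block is the wound for center against edge and the animal for the other comparisons.

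Named genes are the 10 members, the 10 genes most like their mean, up to 3 called genes per list with the largest slope (1 of them is not reported here), and markers of other cells. GPD1 and LIPE on day 3 and PPARGC1A were singled out once their values were known. The members and lists were chosen with earlier results of these data known. Libraries that stood apart in earlier work are the day 2 center replicate 2, day 3 center replicate 4, day 3 edge replicate 6, day 5 edge replicate 6, day 6 center replicate 5, day 9 center replicate 5 and day 11 center replicate 1. This list is not the authors' own. They name sample 2 of the day 2 center, sample 4 of the day 3 center and sample 5 of the day 3 edge. Whether their sample numbers follow the replicate numbers used here is not stated. The alternatives were DESeq2 1.42.0, no TMM scaling, no low-count filter, the replicate block, FPKM or TMM-scaled CPM for levels, the wounds of an animal summed, all samples in one fit, day in place of log2(day), days 1 to 13 only, a pseudocount of 0.5, and leaving out samples, animals or those libraries.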

Additional observations from a re-analysis of the deposited data

Results flagged for a closer look

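Within states of 6 samples, 17 of 231 groups (a gene or the mean of the 10 genes in a state) had a highest or lowest sample that stood apart by Dixon's ratio, where chance alone gives about 11.55. All values are log2(1 + CPM). In the center on day 7, replicate 6 (animal 3) was low for ADIPOQ (4.75, the other 5 samples at 8.9 to 9.6), PLIN1 (2.56), PLIN4 (1.73), PCK1 (0.74), LIPE (3.91) and the mean of the 10 genes (3.39). At the edge on day 6, replicate 2 (animal 4) was low for ADIPOQ (4.3, the others at 7.9 to 9.95), PLIN1 (1.63) and PLIN4 (1.73). At the edge on day 3, replicate 6 (animal 3) was high for LIPE (10.37, the others at 7.18 to 7.94) and for the mean of the 10 genes (9.88).

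Other single samples that stood apart were ADIPOQ in the center on day 13, replicate 3 (1.11, low), LEP at the edge on day 11, replicate 4 (3.12, high), LEP in the center on day 13, replicate 6 (2.34, high), FABP4 at the edge on day 2, replicate 5 (10.99, high), PCK1 at the edge on day 2, replicate 3 (1.8, low) and GPD1 in the center on day 2, replicate 4 (6.89, low).

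The slope on log2(day) was lower in the center than at the edge, in a test of the difference by edgeR, for ADIPOQ (-1.08), PLIN1 (-1.09), LEP (-1.61), CIDEC (-0.97), FABP4 (-0.57), LPL (-0.64), PLIN4 (-1.0), GPD1 (-1.0) and LIPE (-1.02).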

How the results depend on the processing

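The 28 calls of center against edge became 47 with the wound as replicate block and 18 with all 150 samples in one fit, and 22 to 29 without single replicates. The 72 calls of center against day 0 ranged from 58 to 83 without single replicates. The 34 calls of edge against day 0 became 20 with the replicate block and 53 without the day 0 sample of animal 1, with a range of 23 to 53. The 26 calls of late against early centers ranged from 17 to 37. For the slope at the edge, 1 call became 2 without TMM, with DESeq2, with the replicate block or with day in place of log2(day), and 0 without the libraries that stood apart, with 0 to 1 when single animals were left out. The slope in the center kept 9 to 11 and its difference from the edge 8 to 9 calls without single animals. Shares of all genes are given in the text for the reported fits and the replicate block, and not for the other alternatives. Of the values that passed the threshold in the reported fits, followed through the alternatives other than leaving out replicates, 1140 still passed, 126 no longer did and 0 reversed. Values that had not passed are covered only by the counts above. The causes were not tested. The 4 slopes relative to ADIPOQ kept their sign with a pseudocount of 0.5, with PLIN1 or LIPE in place of ADIPOQ and without the libraries that stood apart, alternatives chosen after seeing the data. Over days 1 to 21 in place of 1 to 7, CIDEC turned from -1.08 to 0.13 and LEP went from -1.33 to -0.09. The longer span holds late centers with little ADIPOQ, such as 0.945 in log2(1 + CPM) in animal 2 on day 21. On this scale no gene can lie far below so low a value. With 3 samples per location from day 15 on, and LEP at 3 counts or fewer in 28 samples, late differences are poorly resolved.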
